A study of Mus musculus with 45 samples.

Results

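Capicua (CIC) is an HMG-box repressor that binds a short octamer in promoters and enhancers of genes acting in receptor tyrosine kinase, RAS and ERK signalling, and it is released or degraded when that pathway is active. In the cerebellum CIC forms a complex with ATXN1, the protein whose polyglutamine expansion causes spinocerebellar ataxia type 1 (SCA1). The members described here are promoter peaks of CIC found in 154Q mice alone. They were chosen by the measured peak lists: a CIC peak of 154Q mice on chromosomes 1 to 19 was a member if any of its summits lay within 1 kb of an annotated transcript start and if the span of its summits overlapped no peak interval of wildtype mice and none of the mice carrying the interaction-impaired allele. Of 1660 peaks in the 154Q list on these chromosomes, 1036 lay at promoters, and 302 of these, or 29.2%, met the rule. Of the 624 peaks of the 154Q list away from promoters, 307 were in neither other list. The lists in which a member had to be absent held 4495 peaks for WT and 860 for 154Q[V591A;S602D] on these chromosomes, and all 3 lists together held 7015.

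CIC was profiled by CUT&RUN, a method that uses an antibody-bound nuclease to cut out the DNA around a protein, in cerebella of C57BL/6 mice aged 10 weeks. The groups were wildtype (WT, n = 4), Atxn1_154Q/2Q (154Q, the SCA1 model with 1 expanded allele opposite a normal one, n = 4), Atxn1_154Q[V591A;S602D]/2Q, in which the expanded allele also carries 2 substitutions in the domain that contacts CIC (154Q[V591A;S602D], n = 3), and Engrailed1-Cre;Cicfl/fl (CIC KO, n = 4). The Cre line deletes Cic in cells of the En1 lineage, and these mice served as the negative control. The authors pooled the libraries of each genotype and called its peaks against pooled CIC KO libraries. Each of the 3 lists is therefore 1 observation without any spread between animals, and every test below is over peaks, which do not replicate animals. The H3K27ac and IgG libraries and read depth per animal were not analysed here, and neither the loss of Cic in the control nor cell type markers can be checked in lists of peaks.

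The highest-ranked members stood at Bcl2, Nf1, Rundc1, Alk and Fosl1. Bcl2, which encodes an inhibitor of apoptosis, had the highest value with a −log10 q of 30.5. It was followed by Nf1, the gene for neurofibromin, which switches RAS off (26.9), by Rundc1 (21.3), by the receptor tyrosine kinase gene Alk (20.5) and by Fosl1, which encodes a subunit of the AP-1 transcription factor (14.7). Atxn2l, a paralog of the ataxin-2 gene, had a −log10 q of 10.5. A pair of peaks lay at the start of Spred3, a Sprouty-related inhibitor of RAS to ERK signalling, with 9.48 and 9.46. Myt1l, a neuronal zinc-finger factor (9.21), and Pcmtd1 (7.89) complete the 10 highest. These values chose the members, since a −log10 q has to pass the threshold of the list, and they are given as a description with no test.

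The sequences at the 10 strongest members are shown in order of −log10 q because they hold, or lack, the octamer that the HMG box of CIC binds. The forms searched on both strands were TGAATGAA, TGAATGGA, TCAATGAA and TCAATGGA. Sequences are from the plus strand of GRCm38.p6 as in RefSeq, and capitals mark the octamer, which reads TTCATTCA, TCCATTCA or TTCATTGA where it lies on the other strand. A run of 101 bases is centred on the highest summit, and a run of 30 bases is centred on the octamer, which was the form used where the wider window touches an untranslated region or where the octamer lies outside that window.
Bcl2, chr1:106714352-106714452: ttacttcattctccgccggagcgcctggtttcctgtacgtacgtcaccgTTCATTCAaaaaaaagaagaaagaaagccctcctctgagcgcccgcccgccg
Nf1, chr11:79339523-79339623: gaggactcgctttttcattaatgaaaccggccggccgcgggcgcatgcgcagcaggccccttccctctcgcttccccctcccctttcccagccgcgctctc
Rundc1, chr11:101424905-101424934: ttgttctcggtTTCATTCActtgttcctcc
Alk, chr17:72604827-72604856: aggcctcagtaTTCATTGAgaaaagcacca
Fosl1, chr19:5447848-5447877: cccaagaacttTTCATTCAtaaaaaagacc
Atxn2l, chr7:126503574-126503674: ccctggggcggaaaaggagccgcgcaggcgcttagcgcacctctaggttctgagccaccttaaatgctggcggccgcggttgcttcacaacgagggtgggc
Spred3, chr7:29168639-29168668: acaaggagcatTTCATTCAcaaaaatcaag
Spred3, other summit, chr7:29169060-29169160: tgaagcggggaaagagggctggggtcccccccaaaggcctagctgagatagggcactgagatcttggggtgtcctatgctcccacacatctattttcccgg
Myt1l, chr12:29527495-29527595: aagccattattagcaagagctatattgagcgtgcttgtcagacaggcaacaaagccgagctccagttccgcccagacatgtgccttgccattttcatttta
Pcmtd1, chr1:7088778-7088878: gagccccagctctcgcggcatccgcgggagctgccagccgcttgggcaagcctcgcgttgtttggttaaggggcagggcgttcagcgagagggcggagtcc

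At Bcl2 the centre of the octamer was 3 bp from the highest summit (chr1:106714402), which lay 128 bp upstream of the start in intergenic sequence. The peak had 3 summits. A WT interval with a −log10 q of 2.13 and a fold enrichment of 2.73 lay 15 bp from the span of these summits, while the nearest 154Q[V591A;S602D] interval was 542573 bp away. At Spred3 the octamer was 5 bp from the summit that lay 2 bp upstream of the start, and the other summit stood 461 bp from it with no octamer within 50 bp. At Rundc1, Alk and Fosl1 the octamer lay 50, 66 and 197 bp from the summit, measured to its centre, and so outside the window of 50 bp on either side. Nf1, Atxn2l, Myt1l and Pcmtd1 had no octamer of the searched forms within 1 kb of their summits. The Nf1 window held TTAATGAA, which differs from TGAATGAA by 1 base and was not among these forms. The Nf1 summit lay 219 bp upstream of the start, and the nearest WT interval was 364952 bp away. The Nf1 window held the letters GCGCATGC, the core of the NRF1 motif.

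**Figure D1:**
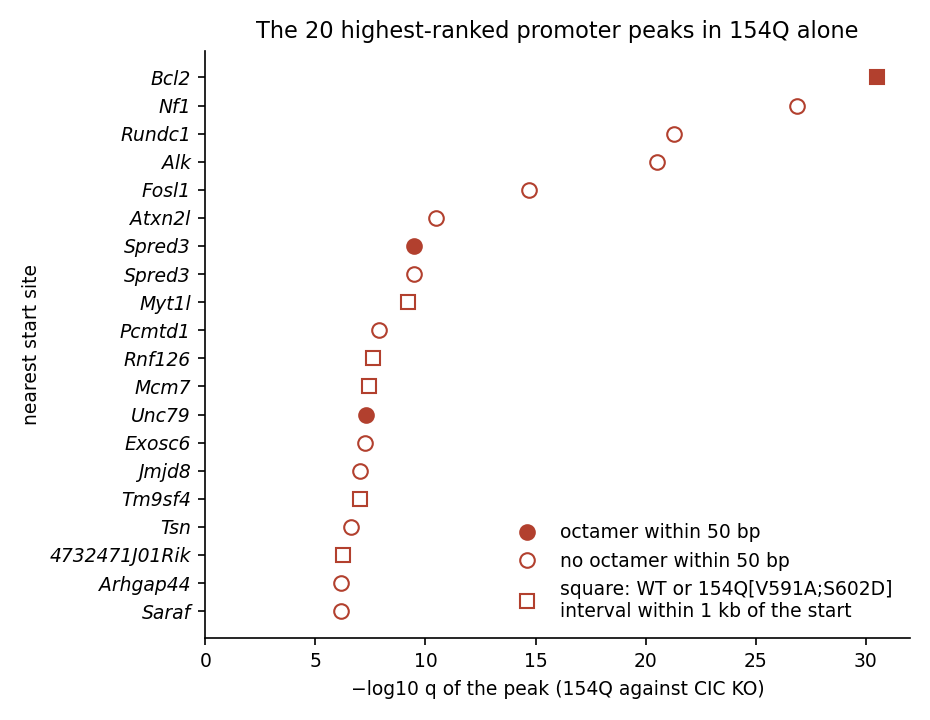
The 20 members with the highest −log10 q (x axis), each named by the gene with the nearest start site (y axis). Filled symbols mark an octamer within 50 bp of the highest summit and squares mark members with a WT or 154Q[V591A;S602D] interval within 1 kb of the same start. Bcl2 at 30.5, Nf1 at 26.9, Rundc1 at 21.3 and Alk at 20.5 stand apart from the rest, which lie at 14.7 or below.

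Within 50 bp of the highest summit, 12 of 302 members carried the octamer, which is 3.97% (95% Wilson interval 2.29 to 6.82%, counting error over peaks only). The octamer was 1 to 32 bp from the summit, with a median of 12.0 bp. TGAATGAA occurred 10 times, TGAATGGA 4 times, TCAATGAA 1 time and TCAATGGA 0 times, since some windows held more than 1 copy. Besides Bcl2 and Spred3, the carriers with a coding start were Unc79, a subunit of the NALCN sodium leak channel complex (−log10 q 7.30), Eif4g1, the scaffold of the cap-binding complex (5.56), Nfkbie, an inhibitor of NF-kappa B (4.39), Hcrtr1, an orexin receptor (4.39), Cbln3, a cerebellin of granule cells (4.29), Socs1, a suppressor of cytokine signalling (3.71), and Eif4a2, an RNA helicase of translation initiation (2.09). The others stood at starts of the genes Gm38408 (3.47), Gm15978 (2.89) and E130307A14Rik (2.46), with no coding start within 1 kb. The windows below show how the octamer differed in number and in its surroundings among carriers. In the Gm38408 window 3 copies of 2 forms overlap in 1 run, and in Nfkbie 2 copies of 1 form overlap.
Unc79, chr12:102949172-102949201: cgtgcgccttaTGAATGGAaatactcctcc
Eif4g1, chr16:20672539-20672639: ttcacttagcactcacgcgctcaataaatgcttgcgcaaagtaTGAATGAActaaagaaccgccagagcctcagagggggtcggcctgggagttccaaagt
Nfkbie, chr17:45555498-45555598: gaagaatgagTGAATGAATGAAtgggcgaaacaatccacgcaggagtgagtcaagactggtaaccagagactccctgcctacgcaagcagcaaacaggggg
Hcrtr1, chr4:130138603-130138703: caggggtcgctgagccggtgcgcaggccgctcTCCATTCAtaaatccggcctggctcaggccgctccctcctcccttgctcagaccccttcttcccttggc
Cbln3, chr14:55883732-55883832: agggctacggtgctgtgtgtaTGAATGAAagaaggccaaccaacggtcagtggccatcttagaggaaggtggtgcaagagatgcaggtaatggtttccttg
Socs1, chr16:10786407-10786507: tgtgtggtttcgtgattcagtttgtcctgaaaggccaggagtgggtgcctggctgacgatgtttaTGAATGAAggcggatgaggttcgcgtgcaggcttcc
Gm38408, chr14:25074398-25074498: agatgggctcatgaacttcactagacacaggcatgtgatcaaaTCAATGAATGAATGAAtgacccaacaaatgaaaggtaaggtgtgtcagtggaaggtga
Eif4a2, chr16:23107193-23107293: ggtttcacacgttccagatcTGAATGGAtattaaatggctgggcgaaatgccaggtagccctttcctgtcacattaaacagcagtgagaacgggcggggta

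The rule did not use the sequence, so the octamer share was tested, although both the octamer share and membership varied with −log10 q, as given below. In windows of the same length 500 bp farther from the start, 5 of 302 members had the octamer (1.66%, 0.709 to 3.82%), a difference of 2.32 percentage points that did not pass the exact McNemar test (two-sided, p = 0.143, with 12 members having it at the summit only and 5 in the flank only). With the flank 250 bp or 1000 bp away the difference was 2.98 points in each case and passed (exact McNemar test, p = 0.0352 for both). Against 1752 promoter peaks found in WT alone, of which 18 had the octamer (1.03%, 0.651 to 1.62%), the members' share was 2.95 points higher (95% Newcombe interval 1.16 to 5.81 points; Fisher's exact test, two-sided, p = 0.000590, adjusted p = 0.00177 over 3 comparisons). Below a −log10 q of 3 this difference did not pass, as given below. The members' share was not separable from that of the 734 154Q promoter peaks shared with WT or 154Q[V591A;S602D], 35 of which had the octamer (4.77%, a difference of −0.795 points, −3.25 to 2.34 points, Fisher's exact test, adjusted p = 0.626). When 154Q promoter peaks were split at their median −log10 q of 3.93, the difference from shared peaks changed sign. It was 3.63 points at or above the median and 0.376 points below it (Fisher's exact test, unadjusted p = 0.309 and 0.760), and neither passed. The split does not match −log10 q within a part, since members reached 30.5 and shared peaks 674. Nor was the members' share separable from that of the 294 promoter peaks in all 3 lists, with 21 carriers (7.14%, a difference of −3.17 points, −7.08 to 0.566 points, Fisher's exact test, adjusted p = 0.161). Both intervals leave room for differences of several points. Of all 39599 coding transcript starts, 354 (0.894%) had the octamer within 50 bp.

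Of the 12 carriers, 11 were among the 150 members with the highest −log10 q. The octamer was present in 4 of the 50 members with the highest −log10 q (8.0%), in 7 of the next 100 (7.0%) and in 1 of the remaining 152 (0.658%, 0.116 to 3.63%). Among members with a −log10 q of 3 or more, 9 of 108 had it (8.33%), and among those below 3, 3 of 194 did (1.55%). Of the shared 154Q promoter peaks, 33 of 520 at 3 or more (6.35%) and 2 of 214 below 3 (0.935%) had it. Of the WT-alone promoter peaks, 12 of 973 at 3 or more (1.23%) and 6 of 779 below 3 (0.770%) had it. The comparison with shared peaks at 3 or more was planned (1.99 points, Fisher's exact test, p = 0.524). The other splits were added after the data were examined. Against WT-alone peaks the difference was 7.10 points at 3 or more and 0.776 points below 3 (Fisher's exact test, p = 7.56e-05 and 0.394). The splits by rank and the comparison with shared peaks below 3 carry no test. All of these are limited because −log10 q chose the members and is on a scale of its own in each list. With a window of 200 bp on either side, which just reaches the octamer of Fosl1, 5 of the 10 highest-ranked members, 7 of the 50 highest-ranked (14.0%) and 29 of all 302 (9.60%, 6.77 to 13.5%) had an octamer, and within 50 bp 2 of the 10 highest-ranked did. The share of all members at 200 bp stood beside 9.67% of the shared peaks, 3.88% of the WT-alone peaks and 4.02% of coding starts.

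**Figure D2:**
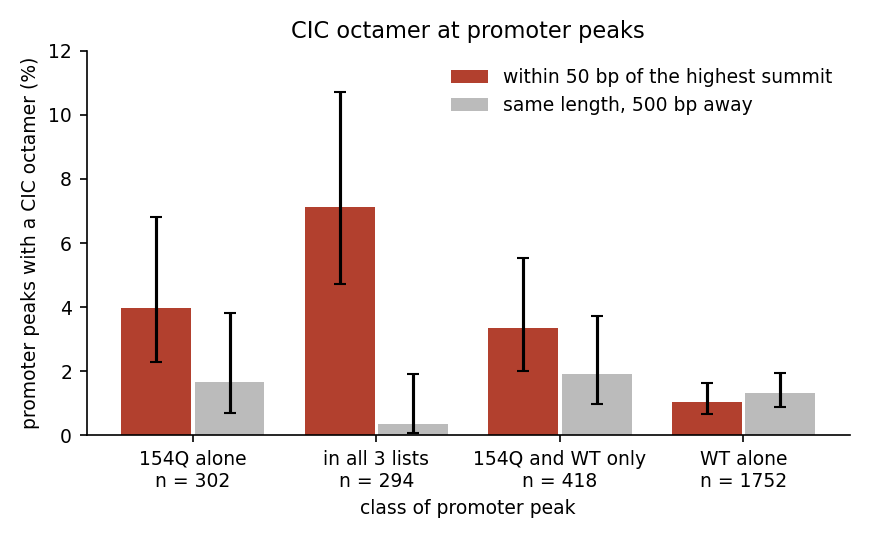
Share of promoter peaks with an octamer (y axis, %) by class of peak (x axis), within 50 bp of the highest summit (red) and in a flanking window 500 bp off (grey), with 95% Wilson intervals as bars. The summit share was 3.97% for 154Q alone, 7.14% in all 3 lists, 3.35% in 154Q and WT only, and 1.03% for WT alone; the 22 peaks shared with 154Q[V591A;S602D] only are not drawn.

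Without a motif in hand, 2560 8-mers present in at least 5 windows were compared between member summits and their flanks. At an adjusted p under 0.05, 4 were more frequent at summits (0.156% of those tested) and 0 were less frequent (0% of those tested). At an unadjusted p under 0.05 (exact McNemar test), 109 were more frequent and 64 less frequent. The number passing the adjusted threshold was 20 with a window of 100 bp on either side and 18 among 8-mers in at least 10 windows. The 4 were CCCGCCCC, in 36 summit and 4 flank windows (exact McNemar test, adjusted p = 0.000475), CCCCGCCC (30 and 3, adjusted p = 0.000592), GCCCCGCC (31 and 4, adjusted p = 0.00120) and GCCCGCCC (18 and 1, adjusted p = 0.0488). All 4 contain CCCGCC, and the first, second and last also contain CCGCCC, the reverse strand of the GC box that Sp1 family factors bind at many promoters. TGAATGAA was in 8 summit and 3 flank windows (exact McNemar test, adjusted p = 0.825). The median GC content was 61.4% at summits and 49.5% in the flanks, and the part of this difference in the 8-mer counts was not tested.

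Other promoter motifs, counted on both strands within 50 bp of the summit, are given as shares with no test, and a match to the letters is not by itself a binding site. GGGCGG, the GC box, was in 29.1% of members, 42.0% of shared 154Q promoter peaks, 33.2% of WT-alone peaks and 26.8% of coding starts. CCAAT, the NF-Y box, was in 13.9%, 23.7%, 24.0% and 12.2% of these. CCGGAA, the core bound by ETS factors, was in 9.27%, 11.2%, 8.45% and 9.67%. TGANTCA, the AP-1 site, was in 8 members (2.65%), 8 shared peaks (1.09%), 31 WT-alone peaks (1.77%) and 1.88% of coding starts. GTTGCC, which is contained in the X-box of RFX factors, was in 4.64% of members, 4.36% of shared peaks, 4.05% of WT-alone peaks and 4.34% of coding starts, and CCTACTA, from the ZKSCAN1 motif, in 0.993%, 0.681%, 0.514% and 0.402%. TATAAA, the TATA box, was in 2 members (0.662%), 1.77% of shared peaks, 1.83% of WT-alone peaks and 4.47% of coding starts, and in 21 member flanks (6.95%). CACGTG, the E-box, was in 2.65% of members, 4.22% of shared peaks, 2.74% of WT-alone peaks and 2.83% of coding starts. GCGCATGC, the NRF1 core, was in 1.32%, 2.72%, 2.17% and 1.53% of these, and AAGATGGC, the YY1 motif, in 1.66%, 1.63%, 1.3% and 2.01%. TGACGTCA, the CRE, was in 1.32%, 1.23%, 0.856% and 1.10%, and TCTCGCGA, the ZBTB33 motif, in 0.331%, 0.954%, 0.913% and 0.606%. Of the 10 highest-ranked members, the windows of Bcl2, Rundc1, Alk, Atxn2l, Myt1l and Pcmtd1 held GGGCGG, and those of Rundc1 and Alk also held CCAAT.

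The highest summit of the members was a median of 154 bp from the nearest start (quartiles 64.2 and 389 bp), against 122 bp (56.0 and 213 bp) for shared peaks. It lay upstream of that start in 55.0% of members (49.3 to 60.5%) and in 74.7% of shared peaks (71.4 to 77.7%), and more than 500 bp from it in 16.9% (13.1 to 21.5%) and 7.22%. WT-alone promoter peaks lay upstream in 64.8% (62.6 to 67.0%) and more than 500 bp away in 14.0% (12.4 to 15.7%), an interval that overlaps that of the members. In the basic annotation 98 member summits were intergenic (32.5%), 106 intronic (35.1%), 67 in an untranslated region (22.2%), 17 in a coding exon (5.63%), 13 in a non-coding exon (4.30%) and 1, at Lin7a, in an untranslated region or a coding exon depending on the transcript. Shared peaks were intergenic in 51.4%, intronic in 22.9% and in a coding exon in 1.63%. Because the rule used the distance to a start, and because members were weaker than shared peaks, these positions were not tested.

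**Figure D3:**
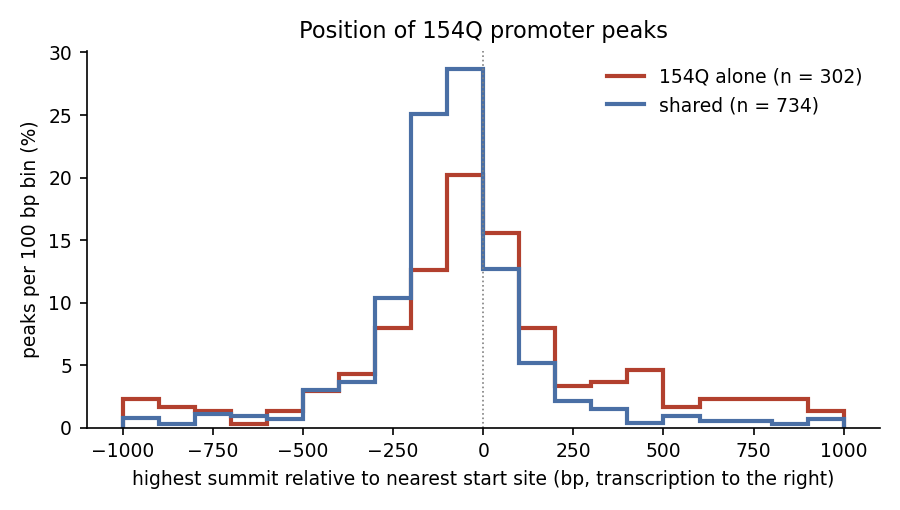
Position of the highest summit relative to the nearest transcript start (x axis, bp, upstream to the left of 0) as the percentage of peaks in each 100 bp bin (y axis), for the 302 members (red) and 734 shared 154Q promoter peaks (blue). Shared peaks pile up just upstream of the start, while 16.9% of members against 7.22% of shared peaks lie more than 500 bp away; WT-alone promoter peaks, not drawn, have 14.0% there.

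CpG-rich sequence, taken as 301 bp around the summit with a GC content of at least 50% and an observed to expected CpG ratio of at least 0.6, was found at 194 members (64.2%, 58.7 to 69.4%), 77.5% of shared peaks and 67.1% of WT-alone peaks. Coding starts on both strands lay within 1 kb of 25 members (8.28%) and of 13.8% of shared peaks. For 258 members the nearest start was that of a protein-coding gene, for 14 that of an antisense RNA and for 10 that of a lincRNA, and 26 members (8.61%) had no coding start within 1 kb. Multiple summits were rare, at 11 members (3.64%) against 181 shared peaks (24.7%), and the share of WT-alone promoter peaks lay between these. The rule used the whole span of summits, so a peak with several summits had more room to meet an interval. With the highest summit alone the number of members was also 302. Members were weaker than shared peaks as well, and the difference in summit number was not tested. The start sites of Spred3, Acbd5, Eif4a2, Zfhx2os and 4932438A13Rik each had a pair of members, with summits 377 bp (Acbd5) to 950 bp (Eif4a2) apart. By chromosome, the share of 154Q promoter peaks that were members ran from 16.7% on chromosome 15 (5 of 30) to 44.4% on chromosome 3 (16 of 36), and chromosome 11, with the most members, was at 30.3% (33 of 109).

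A −log10 q below 3 was found at 194 of the 302 members. The values ranged from 1.3 to 30.5, with a median of 2.24 (quartiles 1.61 and 3.81), while shared 154Q promoter peaks had a median of 5.10 and reached 674. The share of 154Q promoter peaks in neither other list was 52.5% at a −log10 q below 2 (128 of 244), 40.2% from 2 to 3, 33.5% from 3 to 5, 12.2% from 5 to 10 (26 of 213), 1.87% from 10 to 20 (2 of 107) and 4.94% at 20 or more (4 of 81). The 4 in the last class were Bcl2, Nf1, Rundc1 and Alk, and the 2 from 10 to 20 were Fosl1 and Atxn2l. Among the 100 highest-ranked 154Q promoter peaks, 4 were members.

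**Figure D4:**
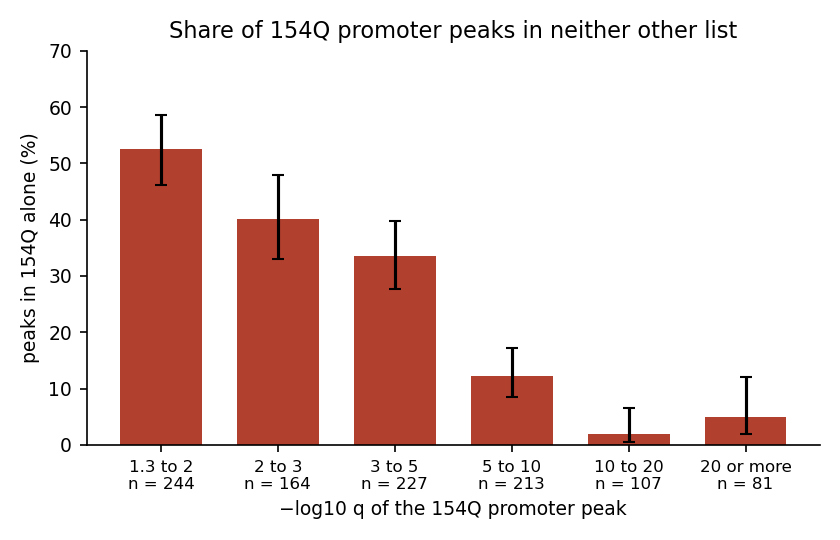
Share of 154Q promoter peaks found in 154Q alone (y axis, %) by −log10 q of the peak (x axis), with 95% Wilson intervals as bars and the number of promoter peaks under each bar. The share was 52.5% in the weakest class and 1.87% and 4.94% in the 2 strongest.

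Being in 154Q alone is a property of the peak, not of the whole promoter. A WT or 154Q[V591A;S602D] interval lay within 10 bp of 11 members, within 100 bp of 44 (14.6%), within 250 bp of 63 (20.9%) and within 1000 bp of 107 (35.4%). The median distance was 16540 bp, and 168 members (55.6%) were more than 10 kb from any such interval. For 109 members (36.1%) a WT or 154Q[V591A;S602D] interval reached to within 1 kb of the same start, and for 193 (63.9%, 58.3 to 69.1%) none did. The octamer was in 6 members of the former kind (5.50%, with Bcl2 and Socs1) and in 6 of the latter (3.11%, with Spred3 and Unc79). The 154Q list gives summits without widths, so a separate peak and the edge of 1 shared bound region cannot be told apart for members near an interval, and sites below the calling threshold of a list are absent from it.

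**Figure D5:**
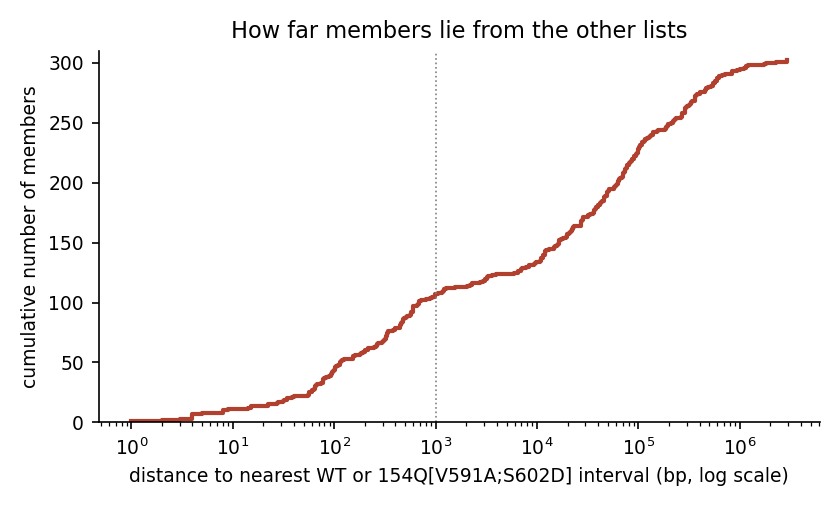
Cumulative number of members (y axis) by distance to the nearest WT or 154Q[V591A;S602D] interval (x axis, bp, log scale), with 1 kb as the dotted line. The curve has a first rise of 107 members up to 1000 bp and a second rise beyond 10 kb, where 168 members lie.

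At the limits of the rule, the members nearest to an interval were at Cic (1 bp, −log10 q 2.75) and Cd2bp2 (2 bp, 1.86), and the promoter peaks that just missed were at Dcaf7 and Fis1, whose summits lay 1 and 4 bp inside the edge of an interval. The members farthest from a start were at Actrt3 (985 bp) and Vcp (977 bp), and the peaks just outside were at Aatk (1005 bp) and Speg (1019 bp). The weakest members were at Gm29427 (−log10 q 1.3) and Gm44066 (1.33). At Cic the neighbouring WT peak had a −log10 q of 32.1. Cic is the gene deleted in the control mice, so reads missing from the control and CIC binding cannot be told apart there.

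At the level of genes, 303 of 20780 protein-coding genes on chromosomes 1 to 19 had a member within 1 kb of a start, that is 1.46%, and 782 (3.76%) had a shared 154Q promoter peak. Of the 303, 104 (34.3%) also had a WT promoter peak, 35 (11.6%) a 154Q[V591A;S602D] promoter peak and 29 (9.57%) a shared 154Q promoter peak, and 190 (62.7%) had none of these. The gene lists below were described by counts beside that background of 1.46%, with the median −log10 q of 2.16 over all 303 genes. Each list with a member share above 1.46% also had a shared-peak share above 3.76%, apart from voltage-gated ion channels (2.10% and 1.40%). A raised share is therefore not particular to the members. The lists were drawn up with earlier results of these data known, so they are not independent evidence. The lists are short or taken by gene family name and none is a complete account of its class, so each count covers the listed genes only.

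Of 75 CIC targets and RAS to ERK regulators, 6 had a member (8.0%; median −log10 q 5.67) and 14 a shared peak (18.7%). Nf1, Fosl1 and Spred3 had no WT or 154Q[V591A;S602D] promoter peak. The members at Dusp7, an ERK phosphatase (1.86), Grb2, the adaptor that links receptors to RAS (1.52), and Shoc2, a scaffold for RAF activation (1.52), were weak and lay 184, 5 and 108 bp from a WT interval with a −log10 q of 4.47, 5.46 and 5.12. At Dusp7 an octamer lay 191 bp from the summit. Among 21 genes for ATXN1 and CIC partners, Cic alone had a member (4.76%), and 7 had a shared peak. Among 50 cell cycle genes, Mcm7, which encodes a subunit of the replicative helicase, was the one listed gene with a member (2.00%; −log10 q 7.45, with a WT interval of −log10 q 5.70 at 652 bp), and 2 had a shared peak. Outside that list, and chosen after their values were seen, the cell cycle genes Cdc34 (4.39), Cdc7 (2.19), Bub3 (1.44) and Mad2l2 (1.33) also had members.

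A list of ubiquitin enzymes taken by family name, with ligases, conjugating enzymes and deubiquitinases, had a member at 13 of 340 genes (3.82%, median 2.77). A shared peak was found at 29 of these genes (8.53%). The list left out the ligase genes Ube3a (3.37), Syvn1 (3.31) and Topors (1.55), which had members and were chosen after their values were seen. The highest were the ligase genes Rnf126 (7.63) and Rnf19a (5.65), the deubiquitinase gene Usp34 (4.45) and the F-box gene Fbxl12 (3.84), and Rnf126 and Usp34 also had a shared 154Q promoter peak. Of 479 zinc-finger factors of the Zfp, Zbtb, Zkscan and Zscan families and their like, 8 had a member (1.67%; median 2.73), led by Zfp60 (5.56), Zkscan17 (4.85), Zfp651 (3.31) and Zfp874b (3.31). None of these 4 had a promoter peak in another list, as judged by summits, although a WT interval lay 571 bp and a 154Q[V591A;S602D] interval 596 bp from the Zkscan17 member, within 1 kb of the same start. Of 174 chromatin regulators, 2 had a member (1.15%), the acetyltransferase gene Kat6a (2.32) and Prdm4 (1.44).

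For translation, 3 of 80 ribosomal protein genes had a member (3.75%), with Rpl6 at 3.81 and Rpl31 and Rps27a at 1.44, and 2 of 78 mitochondrial ribosomal protein genes did (2.56%), Mrpl24 (2.24) and Mrpl58 (1.44). Of 102 translation factors and aminoacyl-tRNA synthetases, Eif4g1 and Eif4a2 had members (1.96%), and both carried the octamer. Eif4a2 had its stronger member, at 3.93, in an intron without the octamer. Among 92 respiratory chain genes, 4 had a member (4.35%; median 1.46), namely Ndufa3 (4.97), Atp5k (1.5), Ndufv2 (1.41) and Ndufb4 (1.39). A list of splicing genes that also took in Ddx and Lsm family genes by name had 5 among 172 (2.91%). They were the splicing kinase gene Prpf4b (4.64), the helicase genes Ddx24 (3.84), Ddx52 (1.86) and Ddx19b (1.44), and Lsm14a (1.86), of which the last 4 are known for ribosome assembly, mRNA export or translational repression rather than splicing. Of 100 RNA polymerase and Mediator genes, Med21 had one (1.00%, −log10 q 1.91). Among the genes named in this paragraph, Rps27a and Ndufv2 also had a WT and a shared 154Q promoter peak. Rpl31 and Ddx24 had a WT promoter peak, and Eif4a2 had a WT and a 154Q[V591A;S602D] promoter peak. The Ndufv2 member lay 8 bp from a WT interval with a −log10 q of 6.36.

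Of 92 genes of synaptic vesicles and release, 4 had a member (4.35%; median 2.28), which were the active zone gene Rims1 (3.65), the priming factor gene Unc13a (2.44), Syn2 (2.12) and Snap25 (1.44). Of 143 voltage-gated ion channel genes, 3 had one (2.10%), Kcnb2 (2.32), the sodium channel gene Scn2a (2.16) and Clcn3 (1.72). Unc13a and Kcnb2 also had a WT, a 154Q[V591A;S602D] and a shared 154Q promoter peak, and Clcn3 had a WT promoter peak. Among 25 granule cell genes Cbln3 (4.29) and Zic1 (2.07) had a member (8.0%), and 5 had a shared peak. The Cbln3 member lay 450 bp inside the gene, 471 bp from a WT interval with a −log10 q of 8.64 and 513 bp from a 154Q[V591A;S602D] interval. Cbln3 also had a shared 154Q promoter peak. The Zic1 member lay 63 bp from a WT interval with a −log10 q of 6.63. Smad5 (1.77) was the one gene of 111 for WNT, Notch, hedgehog and BMP signalling (0.901%), and Cfap99 (2.09) the one of 200 for cilia and centrosome (0.50%). No member was found among the listed 38 Purkinje cell genes, 31 glial genes, 45 glutamate and GABA receptor genes, 49 proteasome genes, 37 autophagy and lysosome genes, 90 DNA repair genes or 80 histone genes. At the background share of 1.46%, a list of such a size can lack a member. The absence therefore does not set any of them apart from all coding genes. These lists do not hold every gene of the class, as Rif1 (3.77), Uvssa (3.4), Trp53 (3.16) and Paxx (1.44), chosen after their values were seen, act in DNA repair or the response to DNA damage and had members.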

How the data were processed

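The authors trimmed reads with Trimmomatic 0.36, aligned them with Bowtie2 2.3.4.1 to mm10 (GRCm38), kept CIC fragments under 120 bp with SAMtools 1.10 and bedtools 2.29.1, merged the libraries of each genotype and called peaks with MACS3 against merged CIC KO at a q-value of 0.05. Peaks over 50% repeat were removed, in the deposited files for 154Q alone. For WT and 154Q[V591A;S602D], the deposited lists give intervals, fold enrichment (a ratio), −log10 q and summit offset, and the deposited 154Q list gives summits and −log10 q. No file used here gives counts, so depth per sample is unknown.

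Lines were collapsed by peak number. Starts were those of GENCODE M21 basic, the sequence was GRCm38.p6, and a 154Q peak spanned its summits, with 1 bp as the smallest overlap. Windows were 101 bp at the highest summit and 500 bp farther from the start. Exact McNemar and Fisher's exact tests (two-sided) used scipy 1.17.1 with Benjamini-Hochberg adjustment over 3 comparisons or all 8-mers, and were tested on simulated data. Wilson and Newcombe intervals are at 95%. Named genes were those of the 10 highest members, of all octamer carriers, of the RAS to ERK and cell cycle lists, up to 4 of every other list, and those at the thresholds. Zfhx2os, Acbd5 and 4932438A13Rik (paired members) were named after their values were seen. The members and lists were chosen with earlier results of these data known. Alternatives were other overlaps, promoter distances, annotations, windows, octamer forms and −log10 q limits.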

Additional observations from a re-analysis of the deposited data

How the results depend on the processing

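The number of members, 302, stayed between 239 and 339 under 10 alternatives (wider 154Q summits, other promoter distances, the highest summit, coding starts, repeat removal, absence from the WT list, and the comprehensive annotation, added later). It was 108 with a −log10 q of at least 3 and 720 when only the 154Q[V591A;S602D] list had to lack the peak. Widening the 154Q summits by 50, 100 or 250 bp removed 22, 44 or 63 members, Bcl2 among them.

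The octamer difference from the flank was positive in all 17 alternatives. It passed the exact McNemar test (unadjusted) in 5 of them: 2.98 points with the flank at 250 bp and at 1000 bp, 3.10 and 3.35 points with summits widened by 100 and 250 bp, and 3.54 points with starts within 2 kb. The difference from shared peaks passed in none of 15, and was 1.99 points at a −log10 q of at least 3, 0.376 points below the median −log10 q and 3.63 points at or above it, against −0.795. The difference from WT-alone peaks held in 6 of 7 alternatives added later, although a −log10 q is not matched between lists. The exception was 0.776 points below a −log10 q of 3 (Fisher's exact test, p = 0.394). Where no peak of another list lay within 1 kb, the difference from WT-alone peaks was 2.06 points (Fisher's exact test, p = 0.0275).

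The 8-mer count of 4 became 20 with a window of 100 bp on either side and 18 among 8-mers in at least 10 windows, where fewer are tested. The number of genes was 254 from the nearest start alone. No paired analysis was possible because the libraries of each genotype were merged before peak calling, and for the same reason no animal could be left out. Depth is unknown, and its part in which peaks a list holds was not tested.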
